A study of Mus musculus with 7 samples.

Results

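The genes described here are the nuclear-encoded genes of the mitochondrial respiratory chain and its ATP synthase, taken as every row of the deposited table whose symbol begins with Nduf, Sdha to Sdhd, Uqcr, Cox4 to Cox8 or Atp5. This gave 85 of 23930 genes, of which 71 are subunits. Sorted by name, they comprised 33 subunits of complex I, 4 of complex II, 8 of complex III, 16 of complex IV and 10 of complex V. By this rule complex I includes Ndufa4, whose protein is now placed in complex IV, and its relative Ndufa4l2. A further 7 were assembly factors of complex I (Ndufaf1 to Ndufaf7) and 4 were assembly factors of complex II (Sdhaf1 to Sdhaf4), which are not part of the finished complexes. The remaining 3 names (Atp5c1-ps, a pseudogene, and Atp5s and Atp5sl) are no subunits and were kept apart.

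RNA was measured in Pax7-GFP positive cells sorted from the hind leg muscles of mice kept for 4 weeks, from 12 to 16 weeks of age, in room air (normocapnia, libraries NC1 to NC3) or at 10% CO2 (hypercapnia, libraries HC1 to HC4). Animals of both groups carried an inducible Pax7-GFP reporter on a C57BL/6 background and received tamoxifen, and according to the methods their muscles had been injured with cardiotoxin before collection, a step that the sample labels do not mention. The methods place collection 3 days after the injury, whereas the deposited table is named with 40Hr and does not say what this time counts from, so the time after injury is not settled here. The reporter is switched on by a Cre recombinase expressed from the Pax7 locus, and the label stays on in the descendants of a cell that once expressed Pax7, so the gate is not limited to cells that still make Pax7. Macrophages and endothelial cells do not descend from such cells, and the gate should remove them. The comparison asks whether hypercapnia alters the transcripts of these cells, and nothing in the labels says whether each library is 1 mouse, so the p-values describe the spread between these libraries.

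Complex I takes electrons from NADH and complex II takes them from succinate in the citric acid cycle, and both hand them to coenzyme Q. Complex III passes them on to cytochrome c and complex IV, cytochrome c oxidase, delivers them to oxygen, while the protons pumped by complexes I, III and IV drive complex V, the ATP synthase. Satellite cells, the stem cells of skeletal muscle, hold few mitochondria at rest and gain more as they activate and differentiate.

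Expression of these genes is often controlled together through promoter elements bound by NRF1, GABP (also called NRF2) and YY1. Promoter windows of 300 bases, from 250 before to 50 after the transcription start (RefSeq, GRCm38.p6), were used for 66 of the 85 genes. On either strand, the NRF1 element CGCATGCGC (reverse complement GCGCATGCG) was present in 8 of these 66 genes (12.1%), against 1.95% of all 27025 genes with a window and 4.56% of those at a mean of 10 RPM (reads scaled to a common library total) or more. The GABP element CCGGAAG (reverse complement CTTCCGG) was present in 18 genes (27.3%, against 9.93% and 21.8%), and the YY1 element AAGATGGCG (reverse complement CGCCATCTT) in 7 genes (10.6%, against 1.64% and 4.15%). A match is a match of letters and not a measured site. The NRF1 matches are shown because they spread over 4 of the complexes and the assembly factors and include the gene with the smallest p, Ndufa8. Each has 30 bases read on the coding strand with the element in capitals, and in 6 of the 8 genes both orientations of the element match and overlap:
Atp5k (complex V), chr5:108434429-108434458, minus strand: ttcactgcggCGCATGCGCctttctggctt
Cox6a1 (complex IV), chr5:115349100-115349129, minus strand: aggaacggggCGCATGCGCgctctcgctcc
Uqcrc1 (complex III), chr9:108936668-108936697, plus strand: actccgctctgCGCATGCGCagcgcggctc
Uqcr11 (complex III), chr10:80406807-80406836, minus strand: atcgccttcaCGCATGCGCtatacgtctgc
Ndufa8 (complex I), chr2:36049328-36049357, minus strand: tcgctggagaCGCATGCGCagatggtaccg
Ndufa11 (complex I), chr17:56717693-56717722, plus strand: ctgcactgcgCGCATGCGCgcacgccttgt
Ndufaf4 (complex I assembly), chr4:24897961-24897990, plus strand: cagatgtctgCGCATGCGCctgtgcggaag
Ndufaf5 (complex I assembly), chr2:140170653-140170682, plus strand: gtcccgttggCGCATGCGCctaatagaaac

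The next stretches belong to genes whose values are given in detail further on, the complex II subunits Sdhb and Sdhd and the complex V subunit Atp5e with a GABP element, and the complex I subunits Ndufs7 and Ndufs4 with a YY1 element, again in capitals and on the coding strand:
Sdhb, chr4:140961266-140961295, plus strand: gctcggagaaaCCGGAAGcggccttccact
Sdhd, chr9:50603877-50603906, minus strand: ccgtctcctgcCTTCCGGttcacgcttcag
Atp5e, chr2:174464185-174464214, minus strand: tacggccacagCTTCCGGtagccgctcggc
Ndufs7, chr10:80249463-80249492, plus strand: ggccgaggccAAGATGGCGgcgctggcggg
Ndufs4, chr13:114388045-114388074, minus strand: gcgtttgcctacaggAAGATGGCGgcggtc

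The libraries held between 14527445 and 23388710 reads, so that 3 reads corresponded to 0.128 to 0.207 RPM. Of the 85 genes, 70 had a mean of 10 RPM or more, and Cox7b2, Cox8c and Atp5c1-ps never exceeded 3 reads. Satellite cell markers differed widely within normocapnia: Pax7 was at 268 RPM in NC1, 8.25 RPM in NC2 and 4.34 RPM in NC3, and between 20.1 and 79.5 RPM in hypercapnia. Macrophage genes were read in all 7 libraries (Lyz2 at 8354 to 29108 RPM, Cd68 at 729 to 2185 RPM and C1qb at 158 to 1061 RPM). Of the other genes of the C1q complex, C1qa was at or near 0 throughout and C1qc was read at 0.069 to 16.0 RPM. The mean level of 14 macrophage markers, on the log2(RPM + 1) scale, was 7.47 to 8.46 in normocapnia and 7.79 to 8.50 in hypercapnia. Of these 14 markers 1 was called in limma by the rule given below, Adgre1, which encodes the surface protein F4/80. Over all genes at 10 RPM or more, 5.54% were called and 9.62% were without overlap. Adgre1 was at 109, 149 and 70.5 RPM in normocapnia and at 392, 429, 151 and 184 RPM in hypercapnia, without overlap (log2 fold change 1.31, SE 0.49, adjusted p 0.915 in limma). Its call held in 11 of 16 alternative fits and was lost, among others, without NC1 and without NC3. NC3 stood apart, with the lowest value of the 7 libraries in 49.5% of the 8229 genes at 10 RPM or more, and results are therefore also given without it. Values are listed below in the order NC1, NC2, NC3 for normocapnia and HC1, HC2, HC3, HC4 for hypercapnia.

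No respiratory chain gene was called different between the groups. A gene was called when its unadjusted p in limma was below 0.05 and its fold change above 1.5, and 0 of the 85 genes were called, where 2.57% of all genes and 5.54% of genes at 10 RPM or more were. With limma, 0 of the 85 also had an unadjusted p below 0.05 (background 9.36% of genes at 10 RPM or more), and in 0 were the groups free of overlap (background 9.62%). The smallest p was 0.113, for Ndufa8. On the same reads edgeR called 1 of the 85 genes with its filter on low counts and 2 without it, and DESeq2 called 2, all at unadjusted p-values and described below with their values, in fits that called 6.03%, 4.38% and 6.25% of the genes tested. No gene of the whole table passed in limma after adjustment, with 615 genes called before it, so the absence of calls after adjustment is not particular to these genes.

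The median log2 fold change of the 85 genes, hypercapnia over normocapnia, was 0.11, and 52 lay above 0 and 31 below it. The 8229 genes at 10 RPM or more had a median of 0.13. Scaling by the median of ratios and quantile normalization, which centre the typical gene by construction, set this median to -0.00565 and 0.0189, and 42 and 47 of the 85 genes then lay above 0. Of the 70 genes at 10 RPM or more, 10 (14.3%) were past a fold change of 1.5 in either direction, against 27.5% of all genes at that level.

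**Figure D1:**
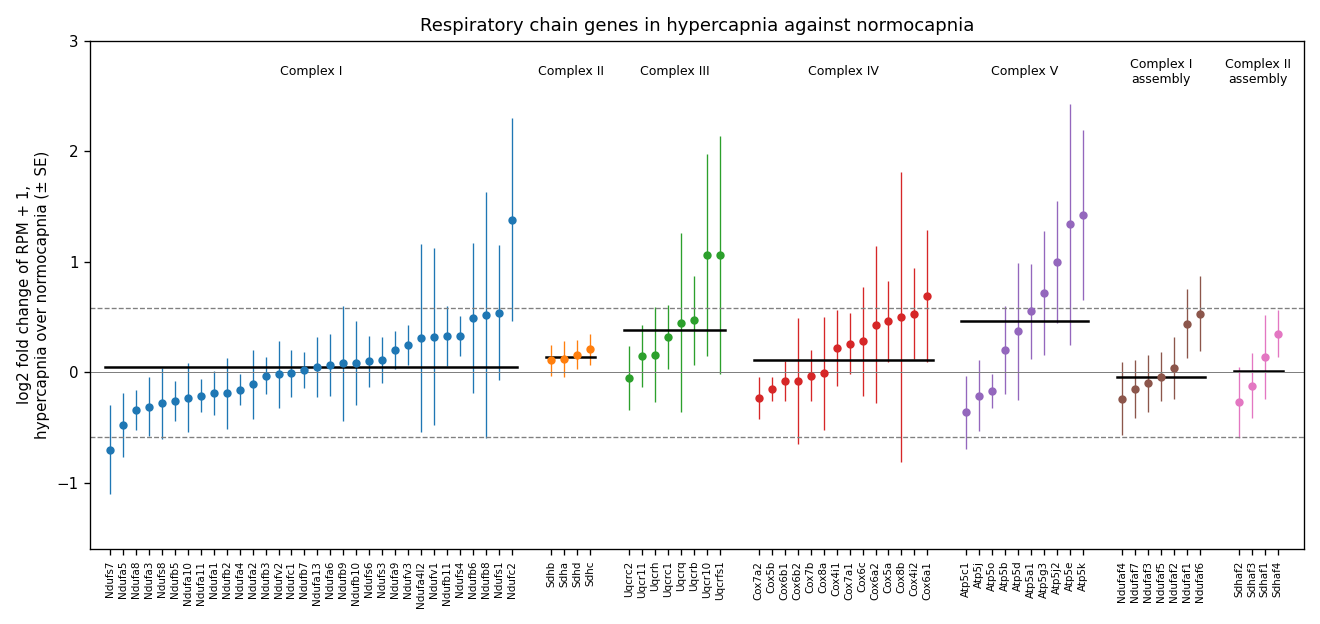
Log2 fold change of RPM + 1 in hypercapnia over normocapnia for detected genes, ordered within each complex, with the limma standard error as a vertical line, the median of all listed genes of each complex as a black bar and a fold change of 1.5 as dashed lines. The complex II subunits sit together between 0.11 and 0.21, whereas those of complex V run from -0.36 to 1.42 with long error lines.

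The absence of calls does not show equality, and the 95% intervals of the limma fold changes give a range of differences. They assume the same variance in both groups. Most genes were spread more widely in normocapnia, the smaller group, so the intervals may be too narrow. For 11 of the 70 genes at 10 RPM or more (15.7%) the interval lay within a fold change of 1.5 on either side, and for 35 of the 70 within a fold change of 2. Over all genes at that level the shares were 8.65% and 34.7%. The 11 genes were the 4 complex II subunits Sdha, Sdhb, Sdhc and Sdhd, the complex I subunits Ndufb3, Ndufb7 and Ndufc1, Ndufa4, counted with complex I by its name, the complex IV subunits Cox5b and Cox6b1, and Atp5o of complex V.

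The values were spread more widely in normocapnia than in hypercapnia. The SD of log2(RPM + 1) was larger in normocapnia in 62 of the 70 genes (88.6%), the same share as in all genes at 10 RPM or more (88.6%), with a median SD of 0.59 over the normocapnia libraries and 0.22 over the hypercapnia libraries. In 38 of the 70 genes (54.3%) all 4 hypercapnia values lay inside the normocapnia range, against 45.2% of all genes at that level. NC3 was the lowest library in 38 genes (54.3%), NC1 the highest in 31 (44.3%, against 30.3% of all genes at that level), and HC4 the lowest in 14. Over the whole table HC1 and HC2 were closest to each other, and so were HC3 and HC4. The labels do not say whether these 4 libraries are independent.

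**Figure D2:**
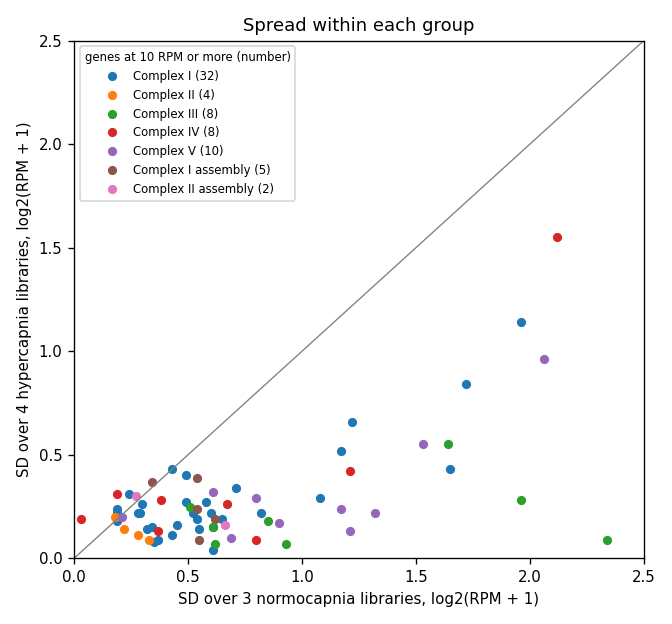
SD of log2(RPM + 1) over the 3 normocapnia libraries (horizontal axis) and the 4 hypercapnia libraries (vertical axis) for each subunit and assembly factor at a mean of 10 RPM or more, coloured by complex, with the line of equal SD. All but 8 of the points lie below the line, and the point furthest to the right is a complex III subunit.

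NC3 was not low throughout. In 18 of the 70 genes (25.7%, against 22.4% of all genes at that level) NC3 was more than 2-fold below the lowest of the other 6 libraries, and these included 6 of the 10 complex V subunits and 4 of the 8 complex III subunits. In 10 genes (14.3%, against 13.9%) it was more than 1.2 times the highest of the other 6, and 7 of these were complex I subunits, among them Ndufa5, Ndufa8 and Ndufs8. Subunits of the same complex, in complexes I and V, were thus at opposite ends of the range in NC3.

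**Figure D3:**
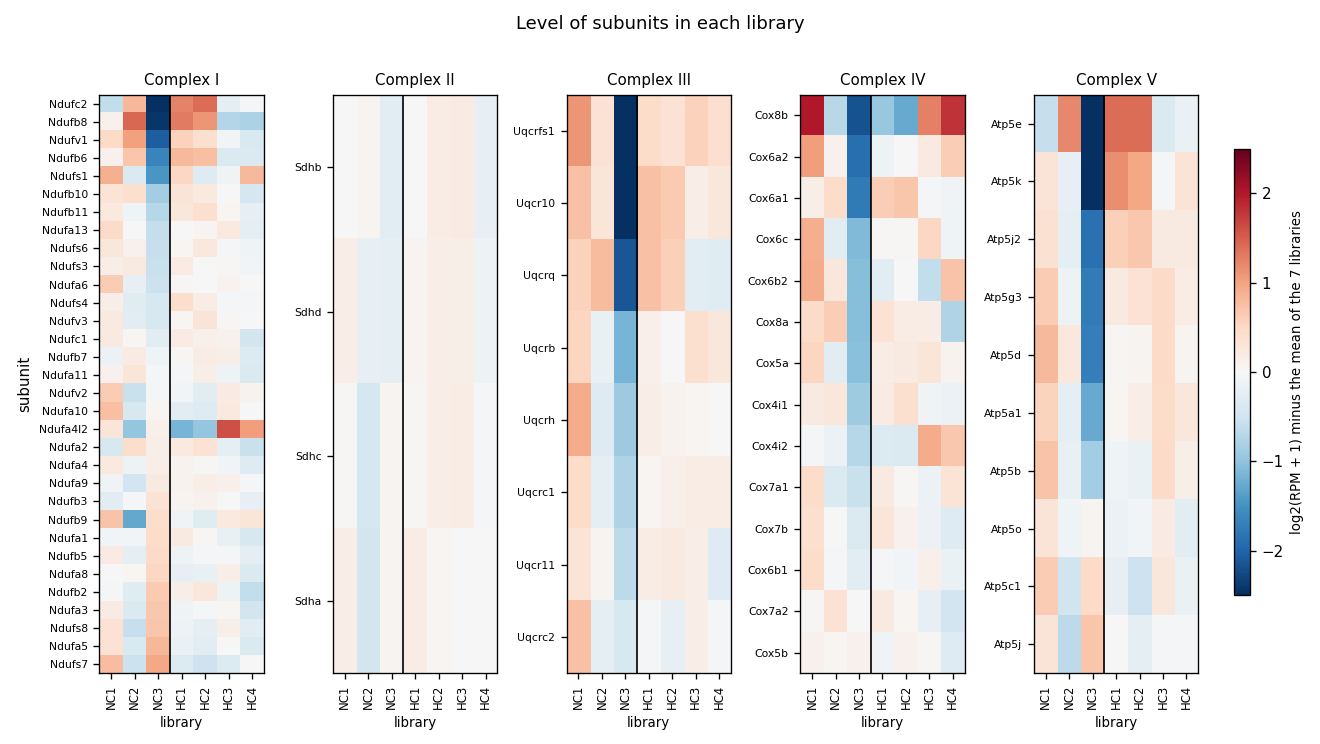
Level of detected subunits in each library as log2(RPM + 1) minus their mean over the 7 libraries, by complex, with the vertical line between normocapnia and hypercapnia and colours capped at 2.5 on either side. The NC3 column is blue in most of complexes III and V, pale in complex II and red in the lower rows of complex I, while the 4 hypercapnia columns are mostly pale.

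Complex I had 33 subunits measured, with a median log2 fold change of 0.05, 18 above 0 and 15 below. This median was 0.21 without NC1, -0.07 without NC3 and between -0.12 and -0.01 under the other scalings, edgeR and DESeq2. The subunits had a mean level, on the log2(RPM + 1) scale, of 6.57, 6.26 and 6.06 in normocapnia and 6.47, 6.43, 6.36 and 6.18 in hypercapnia. The 10 subunits named Ndufs or Ndufv, which include the core subunits that carry the flavin and most iron-sulfur clusters, had a median of 0.18, and the 23 named Ndufa, Ndufb or Ndufc, mostly accessory subunits around that core, had a median of -0.01. Ndufa4, which encodes a protein now placed in complex IV, was at 434, 337 and 414 RPM in normocapnia and at 393, 376, 350 and 296 RPM in hypercapnia, and the groups overlapped (log2 fold change -0.16, SE 0.14, interval -0.50 to 0.18). Ndufb9, an accessory subunit of the membrane arm, ran from 132 RPM in NC2 to 529.8 RPM in NC1, with all hypercapnia values between these, at 304, 259.9, 383 and 397 RPM.

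Ndufa8, an accessory subunit on the intermembrane side and the gene with the smallest p of all 85, was at 61.6, 63.7 and 88.1 RPM in normocapnia and at 52.7, 54.0, 68.8 and 47.4 RPM in hypercapnia. Only HC3 among the hypercapnia libraries reached into the normocapnia range (log2 fold change -0.34, SE 0.18, p 0.113 in limma, adjusted p 0.915). Without NC3, its highest library, the log2 fold change was -0.18. Ndufs4, a late-added subunit whose loss causes a mitochondrial disease in mice and humans, was at 62.8, 45.9 and 42.7 RPM and at 77.2, 65.1, 55.2 and 55.8 RPM, so that HC1 and HC2 exceeded every normocapnia library and HC3 and HC4 did not (log2 fold change 0.33, SE 0.18, adjusted p 0.915 in limma, with 0.22 without NC3 and 0.49 without NC1).

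Ndufs7, which binds the last iron-sulfur cluster before coenzyme Q, was named after its values were seen, because edgeR and DESeq2 called it lower. It was at 163, 65.7 and 188 RPM in normocapnia and at 75.4, 66.1, 75.5 and 96.3 RPM in hypercapnia. NC2 lay below every hypercapnia library and NC1 and NC3 lay above all of them. The log2 fold change was -0.70 in limma (SE 0.40, adjusted p 0.915), -1.01 in edgeR (adjusted p 0.758) and -1.07 in DESeq2 (adjusted p 0.473), and in limma it was -1.16 without NC2 (adjusted p 0.326), -0.52 without NC1 and -0.41 without NC3. At the other end of complex I, Ndufc2, also named after its values were seen, was at 18.6, 52.4 and 3.99 RPM and at 69.3, 78.0, 24.7 and 27.8 RPM. Its log2 fold change of 1.38 (SE 0.92) was 0.48 without NC3.

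Complex II, the only complex with no mitochondrially encoded subunit and also an enzyme of the citric acid cycle, had the smallest median SD of the 5 complexes in both groups (0.25 in normocapnia and 0.12 in hypercapnia, on the log2 scale). Sdha, the flavoprotein that oxidises succinate, was at 203, 132 and 191 RPM in normocapnia and at 206, 186, 180.0 and 179.6 RPM in hypercapnia. Sdhb, the iron-sulfur subunit, was at 202, 209 and 166 RPM and at 198, 229, 232 and 174 RPM. The groups overlapped in both, and so they did in the membrane anchors Sdhc (284, 205 and 292 RPM, then 285, 314, 318 and 273 RPM) and Sdhd (232, 179.8 and 174 RPM, then 218, 233, 229.7 and 189.6 RPM). The 4 log2 fold changes ran from 0.11 to 0.21 with SEs between 0.13 and 0.16, and the interval reaching furthest from 0 was that of Sdhc, from -0.15 to 0.56. Without NC2 the log2 fold changes of Sdha and Sdhc were -0.07 and 0.04, and the median of the 4 subunits, 0.14, was 0.26 without NC1, 0.08 without NC2 and 0.14 without NC3. Their assembly factors Sdhaf2, which helps attach the flavin to Sdha, and Sdhaf4 had log2 fold changes of -0.27 (SE 0.32) and 0.35 (SE 0.21), which were 0.11 and 0.20 without NC3, and the 4 assembly factors had a median of 0.01.

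Complex III had 8 subunits measured, with NC3 the lowest library in all 8 and every hypercapnia value inside the normocapnia range in 7. Its mean level was 7.75, 7.15 and 5.55 in normocapnia and 7.37, 7.31, 7.26 and 7.14 in hypercapnia, on the log2(RPM + 1) scale. Uqcrfs1, the Rieske iron-sulfur protein, named after its values were seen, was at 215, 128 and 9.43 RPM in normocapnia and at 137, 129, 149 and 133 RPM in hypercapnia. The hypercapnia libraries thus differed little among themselves, while NC1 and NC3 lay on either side of them.

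Uqcr10, a small subunit beside the Rieske protein, was at 265, 199 and 21.3 RPM and at 266, 252, 179 and 194 RPM, again with the single low value in NC3. Uqcrc1, a core subunit with an NRF1 element, was at 537, 335 and 229 RPM and at 403, 429, 448 and 447 RPM, and Uqcrh, the hinge protein next to cytochrome c1, was at 439.7, 185 and 123 RPM and at 259, 244, 237 and 229.9 RPM. The median log2 fold change of complex III was 0.38 with all libraries and -0.19 without NC3, where those of Uqcrfs1 (1.06, SE 1.08) and Uqcr10 (1.06, SE 0.91) became -0.28 and -0.07. Without NC1 the median was 0.77, and Uqcrb, Uqcrc1 and Uqcrh were then called higher, in a fit that called 8.32% of all genes. The sign of the complex III median thus rested on NC3.

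Complex IV had 16 genes in the table, 8 of them at 10 RPM or more, while Cox7b2 and Cox8c had 0 reads in all 7 libraries. The median log2 fold change was 0.11 with these 2 counted as a fold change of 0 on that scale, and 0.24 when genes averaging under 1 RPM were left out. With all 16 genes it was -0.18 without NC3 and 0.38 without NC1. Cox5b, a subunit on the matrix side, was at 260.2, 249 and 258 RPM in normocapnia and at 227, 259, 247 and 193 RPM in hypercapnia (log2 fold change -0.15, SE 0.11). It had the smallest normocapnia spread of the members drawn in the plot of SDs. Cox6a1, the common isoform of a regulatory subunit, was at 562, 696 and 148 RPM and at 778, 826, 492 and 482 RPM, with HC1 and HC2 above every normocapnia library and HC3 and HC4 below NC1. Its log2 fold change of 0.69 (SE 0.60) was 0.00 without NC3. Cox4i1, the common isoform of a subunit that binds ATP, was at 261, 272 and 119 RPM and at 258, 295, 208 and 202 RPM. Cox7b (499.8, 384 and 296 RPM, then 471, 409, 344 and 303 RPM) and Cox6b1 (520.4, 371 and 315 RPM, then 373, 362, 418 and 337 RPM) also overlapped. Values of different genes cannot be ranked here, since each gene was read through its own amplicon, and Cox8a, a common subunit of this complex, was read at only 0.413 to 3.51 RPM.

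Several positions of complex IV are filled by tissue-restricted isoforms, and the levels of Cox8b and Cox4i2 had the same order over the libraries as those of cell type markers. NC1, HC3 and HC4 were the 3 highest libraries, as they are for both, in 8 of the 70 genes at 10 RPM or more (11.4%, against 19.9% of all genes at that level). Cox4i2, at a mean of 1.01 RPM, is not among those 70. Cox8b, the isoform of heart and skeletal muscle, was at 44.4, 6.03 and 1.51 RPM in normocapnia and at 4.88, 3.72, 26.1 and 38.8 RPM in hypercapnia. Its order over the 7 libraries, from NC1 through HC4, HC3, NC2, HC1 and HC2 to NC3, was the order of the mean level of 13 myofiber markers, which was 7.98, 6.13 and 3.98 in normocapnia and 5.33, 4.73, 6.51 and 7.11 in hypercapnia. The mean level of 13 satellite cell markers had the same 3 libraries at the top (6.91 in NC1, 5.78 in HC3 and 5.38 in HC4). According to the methods the cells were filtered and sorted before RNA was taken. The part of fibre transcripts in the Cox8b values was not tested, and in these bulk libraries fewer cells of a type and less RNA per cell cannot be told apart. The log2 fold change of Cox8b was 0.50 (SE 1.31), and -0.44 without NC3.

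Cox6a2, the muscle isoform of Cox6a, had its highest value in NC1 (12.4 RPM) and its lowest in NC3 (0.757 RPM), with 5.99 RPM in NC2 and 4.96, 5.53, 6.62 and 8.87 RPM in hypercapnia, an order that departs from that of the myofiber markers only in HC1 and HC2. Cox7a1, the muscle isoform of Cox7a, stayed between 4.13 and 9.41 RPM and did not follow that order, nor did Cox6b2, an isoform of testis read at 0.275 to 4.10 RPM. The log2 ratio of Cox8b to Cox8a was 3.46, 0.64 and 0.83 in normocapnia and 0.64, 0.49, 3.0 and 4.51 in hypercapnia. The groups overlapped in this ratio and in the 5 other isoform ratios computed.

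Cox4i2, an isoform found in lung and vessel wall cells and induced by low oxygen, was at 0.803, 0.684 and 0.138 RPM in normocapnia and at 0.471, 0.452, 2.56 and 1.96 RPM in hypercapnia, with more than 3 reads in 6 of the 7 libraries. Ndufa4l2, a relative of Ndufa4 that is also induced by low oxygen and lowers respiration, was at 7.94, 2.69 and 6.82 RPM and at 2.23, 2.71, 20.9 and 13.9 RPM. In both genes HC3 and HC4 were above every normocapnia library while HC1 and HC2 were below NC1. The mean level of 10 endothelial markers was 3.97, 3.18 and 2.26 in normocapnia and 2.48, 2.28, 5.11 and 4.72 in hypercapnia, with the same 2 libraries at the top. Cox4i2 followed its order in all 7 libraries, but the lower part of that order rests on near ties (markers at 2.28 in HC2 and 2.26 in NC3). Cox4i2 itself was read there through few reads, with 2 in NC3. The gate should remove vessel cells, and their part in these values was not tested. The log2 fold changes were 0.53 (SE 0.41) for Cox4i2, with 0.32 without NC3, and 0.31 (SE 0.85) for Ndufa4l2, with -0.08 without NC2.

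**Figure D4:**
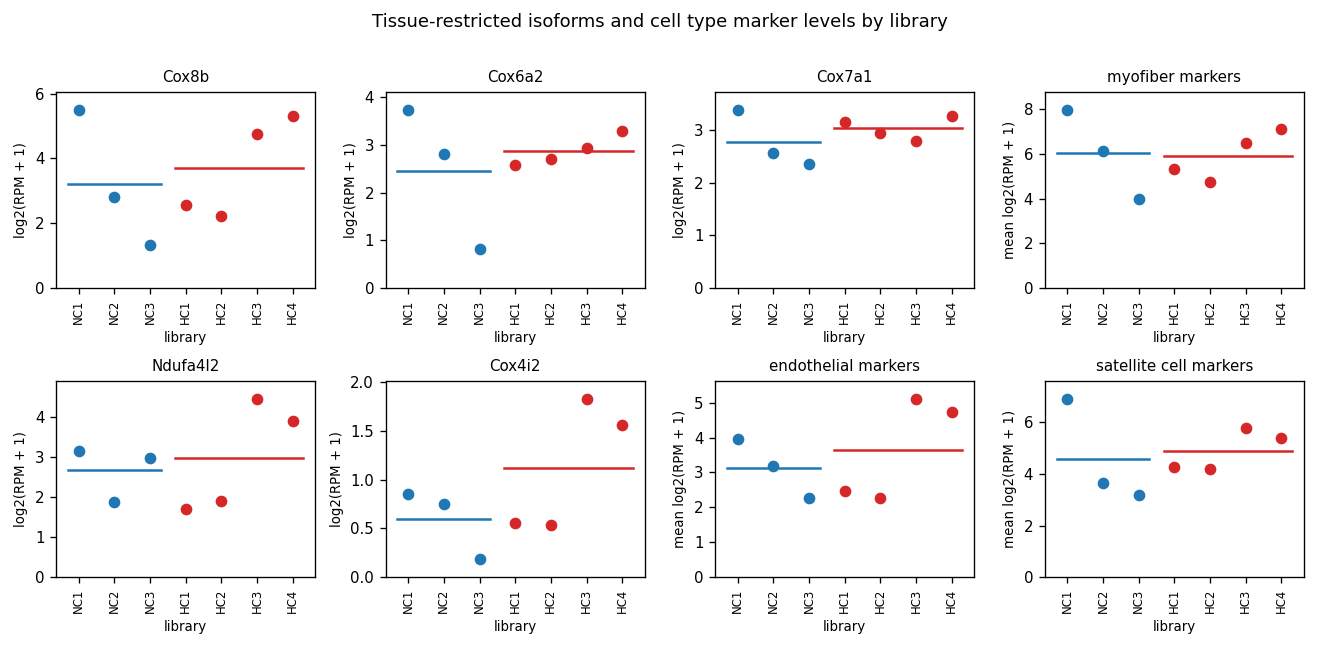
Level of 5 isoforms on the log2(RPM + 1) scale and mean level of 3 marker lists in each library, with the group mean as a line and each panel on its own vertical scale. Cox8b has its highest value in NC1 and then HC4, as the myofiber markers do, and Cox4i2 and Ndufa4l2 have theirs in HC3 and HC4, as the endothelial markers do.

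Complex V had the largest median SD in normocapnia of the 5 complexes (1.03 on the log2 scale, with 0.23 in hypercapnia). Its 10 subunits had a median log2 fold change of 0.46, which was 0.07 without NC3 and 0.94 without NC1, and a mean level, on the log2(RPM + 1) scale, of 8.35, 7.87 and 6.78 in normocapnia and 8.24, 8.21, 8.16 and 8.00 in hypercapnia. Atp5b, the catalytic beta subunit, was at 1261, 677 and 418 RPM in normocapnia and at 712, 684, 1066 and 855 RPM in hypercapnia, all inside the normocapnia range. Atp5a1, the alpha subunit that alternates with it in the catalytic ring, was at 901, 517 and 258 RPM and at 634, 695, 841 and 748 RPM, also inside that range. The log2 fold changes of Atp5b and Atp5a1 were 0.20 (SE 0.40) and 0.55 (SE 0.43), and they were -0.18 and 0.09 without NC3 and 0.62 and 0.99 without NC1.

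Atp5k, the e subunit of the membrane part, which helps pair the enzyme into dimers, was at 244, 169 and 32.4 RPM in normocapnia and at 435, 382, 191 and 247 RPM in hypercapnia. It had the largest log2 fold change of the 85 genes, 1.42 (SE 0.77, interval -0.50 to 3.34, adjusted p 0.915 in limma), and this was 0.55 without NC3. HC1, HC2 and HC4 were above every normocapnia library and HC3 was not. Without a filter edgeR called it higher (log2 fold change 1.17, adjusted p 0.807), and so did DESeq2 (1.15, adjusted p 0.515).

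Atp5j2, the f subunit of the membrane part, was at 617, 405 and 129 RPM in normocapnia and at 711, 754, 555 and 549.9 RPM in hypercapnia, with HC3 and HC4 below NC1 (log2 fold change 1.0, SE 0.55, and 0.35 without NC3). Atp5e, the epsilon subunit of the central stalk, named after its values were seen, was at 48.1, 167 and 8.74 RPM and at 192, 193, 56.3 and 64.5 RPM, with overlap (log2 fold change 1.34, SE 1.09, and 0.26 without NC3). Its highest libraries, HC1, HC2 and NC2, were also those with the highest mean level of macrophage markers, and the same held for 8 of the 70 genes at 10 RPM or more (11.4%, against 11.1% of all genes at that level), the other 7 being Ndufa2, Ndufb6, Ndufb8, Ndufc2, Uqcrq, Cox6a1 and Cox7a2. The gate should remove macrophages, and the part of their transcripts in these values was not tested. Atp5g3, a gene of the c ring that turns with the proton flow, was at 846, 499 and 162 RPM and at 639, 698, 759.7 and 620.1 RPM, inside the normocapnia range.

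Among the assembly factors of complex I, Ndufaf1 was at 28.0, 12.1 and 13.5 RPM in normocapnia and at 21.0, 20.5, 27.7 and 23.4 RPM in hypercapnia, and Ndufaf6 was at 8.16, 3.76 and 2.34 RPM and at 6.63, 6.28, 6.18 and 7.31 RPM. In both genes NC1 was the highest library and the other normocapnia libraries were the lowest, and both were called higher when NC1 was left out (adjusted p 0.178 and 0.177 in limma), in the fit that called 8.32% of all genes. Ndufaf4, which carries an NRF1 element, was at 60.3, 29.3 and 52.3 RPM and at 33.3, 27.6, 49.6 and 46.3 RPM, and Ndufaf7, a methyltransferase for a core subunit, was at 24.1, 23.8 and 47.2 RPM and between 25.5 and 29.5 RPM in hypercapnia. The 7 factors had a median log2 fold change of -0.04, with 3 above 0 and 4 below, and this median was 0.13 without NC1, -0.14 without NC2 and 0.15 without NC3. It was -0.22 with quantile normalization.

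Calls among the 85 genes depended on which normocapnia library was left out. Without NC1, 9 were called, all higher, among them Atp5a1, Atp5j2, Cox5a, Uqcrb, Uqcrc1 and Uqcrh, in the fit that called 8.32% of all genes. Of the genes called over the whole table in that fit, 1495 of 1990 were higher. Without NC2, 5 were called, all lower (Atp5c1, Atp5j, Ndufa5, Ndufs7 and Ndufs8), in a fit that called 5.04% of all genes. Without NC3, and without each hypercapnia library in turn, 0 were called with limma, with 2 of the 85 at an unadjusted p below 0.05 without NC3 and 1 without HC3.

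Genes that work with the chain but bear other names were read beside it. Of 40 further assembly factors listed, 33 were in the table, with a median log2 fold change of 0.22. Over all genes 2.57% were called in limma, and at 10 RPM or more 5.54% were called and 9.62% were without overlap. Of the 33 factors 1 was called, higher, and the same gene alone was without overlap. This was Pet100, which is needed to assemble complex IV, at 116, 101 and 108 RPM in normocapnia and at 251, 221, 162 and 185 RPM in hypercapnia. All 4 hypercapnia libraries were above all 3 normocapnia libraries (log2 fold change 0.89, SE 0.16, p 0.00204, adjusted p 0.65 in limma). It was called in all 16 alternative fits, with log2 fold changes of 0.75 to 1.0 and adjusted p-values, from limma, edgeR and DESeq2, of 0.215 to 0.961. Coa3, another factor of complex IV assembly, named after its values were seen, was at 5.58, 9.71 and 1.58 RPM and at 20.5, 21.1, 5.93 and 7.25 RPM, with overlap, and was called higher in 1 of the 16 alternatives, the replicate block. Surf1, also of complex IV assembly and named likewise, was at 6.42, 6.03 and 16.9 RPM and at 5.31, 6.33, 4.31 and 3.52 RPM, with overlap as well, and was called lower in 1 of the 16, DESeq2.

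None of the 13 genes of coenzyme Q synthesis was called with limma, and none had an unadjusted p below 0.05 (smallest 0.0933, for Coq5, a methyltransferase of the pathway, log2 fold change 0.33, SE 0.16), and their median was 0.41. None of the 6 other chain genes measured was called, with the smallest p, 0.15, for Atpif1, an inhibitor of ATP synthase read at under 1 RPM. Cyc1, the cytochrome c1 subunit of complex III, was at 257, 152 and 143 RPM in normocapnia and at 188, 202, 235 and 232 RPM in hypercapnia. Of 19 regulators of mitochondrial biogenesis, 0 were called with limma and 0 had an unadjusted p below 0.05. Ppard, a nuclear receptor that drives fatty acid oxidation genes, had the smallest p (0.0611), at 42.5, 47.6 and 22.6 RPM and at 56.7, 63.4, 56.2 and 49.2 RPM, without overlap, and was called higher in 1 of the 16 alternatives, without NC2.

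The factors whose promoter elements are shown above were not called in limma on the RPM as deposited with all libraries. Nrf1 was at 70.2, 70.8 and 96.4 RPM in normocapnia and at 44.9, 52.5, 73.2 and 72.2 RPM in hypercapnia (log2 fold change -0.39, SE 0.23). This was -0.24 without NC3 and ran from -0.64 to -0.24 over the 16 alternatives. Gabpa, the DNA-binding subunit of GABP, had a log2 fold change of -0.42 (SE 0.28) and was called lower in 2 of the 16 alternatives, quantile normalization and without NC3 (range over all 16 from -0.73 to -0.21), and Yy1 had one of 0.03 (SE 0.18). The subunits encoded in mitochondrial DNA were not analysed here.

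For comparison with other large multi-subunit assemblies, 69 mitochondrial ribosomal proteins had a median log2 fold change of 0.27, with Mrpl14 called higher in limma (0.60, SE 0.20), Mrpl52 called lower (-0.69, SE 0.12) and 7 without overlap between the groups. The 37 proteasome subunits had a median of 0.20, with Psmd2 called higher (0.65, SE 0.23) and 3 without overlap. Over all genes, 2.57% were called, and 9.62% of those at 10 RPM or more were without overlap. Mrpl52 was called in all 16 alternatives, Mrpl14 in 5 of 16 and Psmd2 in 4 of 16, and edgeR and DESeq2 called neither of the latter pair. Without NC3 the log2 fold changes of Mrpl14 and Psmd2 were 0.38 and 0.39, and that of Mrpl52 was -0.73. The respiratory chain genes had 0 called and 0 without overlap among 85, and whether the sets differ was not tested. The 9 proliferation genes measured all lay above 0 (median 1.60, 0 called with limma and 0 at an unadjusted p below 0.05). Their mean level on the log2(RPM + 1) scale was 6.81, 3.71 and 3.48 in normocapnia and between 5.83 and 6.74 in hypercapnia, and that of 13 satellite cell markers was 6.91, 3.63 and 3.17 and between 4.19 and 5.78.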

How the data were processed

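The authors prepared Ion AmpliSeq Transcriptome Mouse libraries, which read 1 short amplicon per gene, and deposited a table of RPM (reads scaled to a common library total) for 23930 genes in 7 libraries. The submitters' processing notes name the Transcriptome Analysis Console, and no source used here gives the aligner or genome build. Values were whole multiples of 1 read within 0.05 reads for at least 99.99% of the entries of each library, which returned whole reads and the depth of each library. No 2 libraries agreed within counting noise, which would give a chi-square over its degrees of freedom near 1. HC1 with HC2 (24.6) and HC3 with HC4 (27.3) were the closest pairs, and the other pairs ran from 105 to 528. Groups were taken from the sample labels. The genes were tested with limma 3.58.1 in R 4.3.3 (two-sided) on log2(RPM + 1) of all genes, without a filter, with Benjamini-Hochberg adjustment over all genes. edgeR 4.0.16 (quasi-likelihood) and DESeq2 1.42.0 on the whole reads, pseudocounts of 0.1 and 5 RPM, a minimum mean of 1 RPM, other scalings, a replicate block and leaving out each library were alternatives. The limma and edgeR fits were tested on simulated reads with the same spread in both groups. That check does not cover the unequal spread of these data. Fold changes on the log2(RPM + 1) scale understate those of low genes. Intervals cover the spread between libraries. The genes and lists were chosen with earlier results of these data known. Named were, in each complex, the 2 genes with the highest mean RPM and the 2 with the smallest p, all complex II subunits, both genes of each isoform pair, and, in other lists, called genes and the one with the smallest p. The values of 1 gene are not reported here by name or in the labelled plots, and it stays in the counts and medians.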

Additional observations from a re-analysis of the deposited data

Results flagged for a closer look

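In the 4 hypercapnia libraries, 49 values were examined for a single library far from the others, by dividing the gap between that library and its neighbour by the whole range and comparing the quotient with Dixon's critical value at 95%. Chance flags about 1 in 20 such groups, and 3 of 49 were above it. Cox8a reached 0.848, with 0.745 RPM in HC4 against 2.36 to 2.78 RPM in HC1 to HC3, a level that rests on few reads. The mean level of the 4 complex II assembly factors reached 0.865, with 4.10 in HC1 against 3.78 to 3.82 in the other libraries on the log2(RPM + 1) scale. The log2 ratio of Cox7a1 to Cox7a2 reached 0.902, with -3.46 in HC4 against -4.29 to -4.21 in HC1 to HC3.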

How the results depend on the processing

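The number of genes called over the whole table was 615, and it was 1049 in edgeR without a filter and 1304 in DESeq2, and ran from 376 to 1990 when each library was left out in turn. Of the respiratory chain genes, 0 were called, with 1 in edgeR with its filter (Ndufs7), 2 in edgeR without it and 2 in DESeq2 (Atp5k and Ndufs7), and 0 to 9 with each library left out. After adjustment 0 genes of the table passed in limma, 29 in DESeq2, and 0 to 8 with each library left out. The median log2 fold change of the complex II subunits was 0.14, and 0.0 with median-of-ratios scaling and -0.02 in DESeq2. Those of complexes III and V, 0.38 and 0.46, were 0.14 and 0.22 in DESeq2, and that of complex I turned from 0.05 to -0.12. That of the complex II assembly factors was 0.01, and -0.19 with quantile normalization, -0.14 and -0.12 in edgeR with and without its filter and -0.18 in DESeq2. The cause was not tested. Without NC3, 32 of the 85 genes changed the sign of their fold change, none of them called. The replicate numbers are shared by the groups, but not every same-numbered pair deviated together (correlations of -0.375, 0.509 and 0.0279 for numbers 1 to 3), and of these only NC2 and HC2 correlated best with each other, so the numbers were not taken as a pairing. With the replicate block 598 genes and 0 respiratory chain genes were called (4 of the 85 at an unadjusted p below 0.05, the smallest 0.0104 for Ndufs4), with medians of 0.08, 0.21, 0.37, 0.13 and 0.47 for complexes I to V and of 0.06 and -0.02 for the assembly factors of complexes I and II. For 35 of the 70 genes at 10 RPM or more the 95% interval reached beyond a 2-fold difference, and levels near 1 RPM, as for Cox4i2 and Cox6b2, rest on few reads.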
